A study of Capra hircus with 6 samples.

Results

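The mitochondrial carriers of the SLC25 family were examined as the 44 rows of the deposited tables whose symbol begins with SLC25A and a number, or is UCP2, out of 16262 rows with a gene symbol. UCP3, SLC25A2, SLC25A6, SLC25A18, SLC25A40 and SLC25A52 were not analysed here. The members were taken by name and not by a measured value, but with earlier results of these data known. The libraries come from adipose mesenchymal stem cells of the goat (Capra hircus), which lie in the stroma of fat tissue and can form fat cells. There were 3 libraries of cells that overexpress TAZ, the Hippo pathway coactivator encoded by WWTR1, and 3 Control libraries of wild-type genotype, and both groups are labelled as under adipogenic differentiation. The series asked how TAZ affects fat cell formation. Its title also names TNF-α, which no sample label mentions. The labels give neither the construct and promoter that drive TAZ, nor whether a line is 1 clone, nor the culture or animal behind each replicate, so the p-values below weigh differences against a spread between libraries that may be only technical.

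SLC25 carriers are nuclear-encoded proteins that sit, with few exceptions, in the inner mitochondrial membrane. Each exchanges or imports a narrow set of small molecules, such as ADP and ATP, phosphate, citrate, malate, amino acids, acylcarnitines, cofactors or iron, and so joins the metabolism of the cytosol to that of the matrix. In fat cells the citrate carrier supplies carbon for fatty acid synthesis, the carnitine-acylcarnitine carrier supplies fatty acids for oxidation, and uncoupling proteins let protons leak back into the matrix.

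Levels are FPKM, fragments scaled to gene length and library total, as the authors deposited them, so levels of different genes can be set side by side per length. Values with ± are the mean and SD of a group (n = 3 libraries). Log2 fold changes are TAZ overexpression minus Control after adding 1 to each FPKM value, so that changes of weakly expressed genes come out too small. Their adjusted p-values come from limma, fitted over all 10750 genes with at least 1 FPKM in at least 3 of the 6 libraries, with 0.05 as the threshold. Library totals were 34070962, 37705644 and 36926906 counted reads in TAZ replicates 1, 2 and 3, against 34967990, 33871397 and 34594066 in Control replicates 1, 2 and 3. These numbers and all read numbers below were recovered from the FPKM values. The sources used here do not say whether the counted unit is a fragment or a single mate, and if mates were counted there are fewer independent fragments than counted reads. WWTR1 stood at 84.6, 118 and 84.2 FPKM in the TAZ libraries, against 30.2, 29.9 and 35.9 FPKM in the Control libraries (log2 fold change 1.54, SE 0.13, limma adjusted p = 6.91e-07). Reads of the construct and of the cell's own gene cannot be told apart in that row. All 10 stromal markers passed the filter, whereas 7 of the 9 adipocyte markers measured did not. These 7 were ADIPOQ, PPARG, PLIN1, LPL, LEP, GPD1 and PCK1. The 2 that passed are among CIDEC, CIDEA and UCP1, the remaining genes of that list. All 9 summed to 19.6 to 22.6 FPKM in the TAZ libraries, against 20.1 to 23.8 FPKM in the Control libraries. The endothelial, epithelial and skeletal muscle lists had no member past the filter. Their summed levels were 0.137 to 0.316, 0.158 to 0.311 and 0.238 to 0.283 FPKM in the TAZ libraries, against 0.336 to 0.533, 0.134 to 0.498 and 0.377 to 0.483 FPKM in the Control libraries. The sources used here give neither the treatment of reads shared by paralogs or pseudogenes nor the strand setting.

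Of the 44 members, 33 passed the filter on low values. Among these, 10 changed, 2 higher and 8 lower in the TAZ libraries. That is 30.3% called, against a background of 37.9% over all tested genes. The share called higher was 6.06%, against 15.7% over all tested genes, and the share called lower was 24.2%, against 22.1%. The count of lower members is therefore near the background. No overlap between the groups was found for 17 of the 33 members (51.5%), against 48.4% of all tested genes. The median log2 fold change was -0.13 over the tested members and -0.05 over all tested genes. Scaling the libraries by their median ratio gave 4 members higher and 6 lower, and turned the balance of all called genes to 52.6% higher, in place of 41.6%. SLC25A28 was the 1 member called with a change of at least 2-fold, a size that 4.52% of all tested genes reached (3.53% as a rise). The count of lower members was 4 without Control replicate 1 or without TAZ replicate 1. The count of higher members was 1 without Control replicate 1 or 2 and without TAZ replicate 1 or 3, and 3 without Control replicate 3 or TAZ replicate 2.

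**Figure D1:**
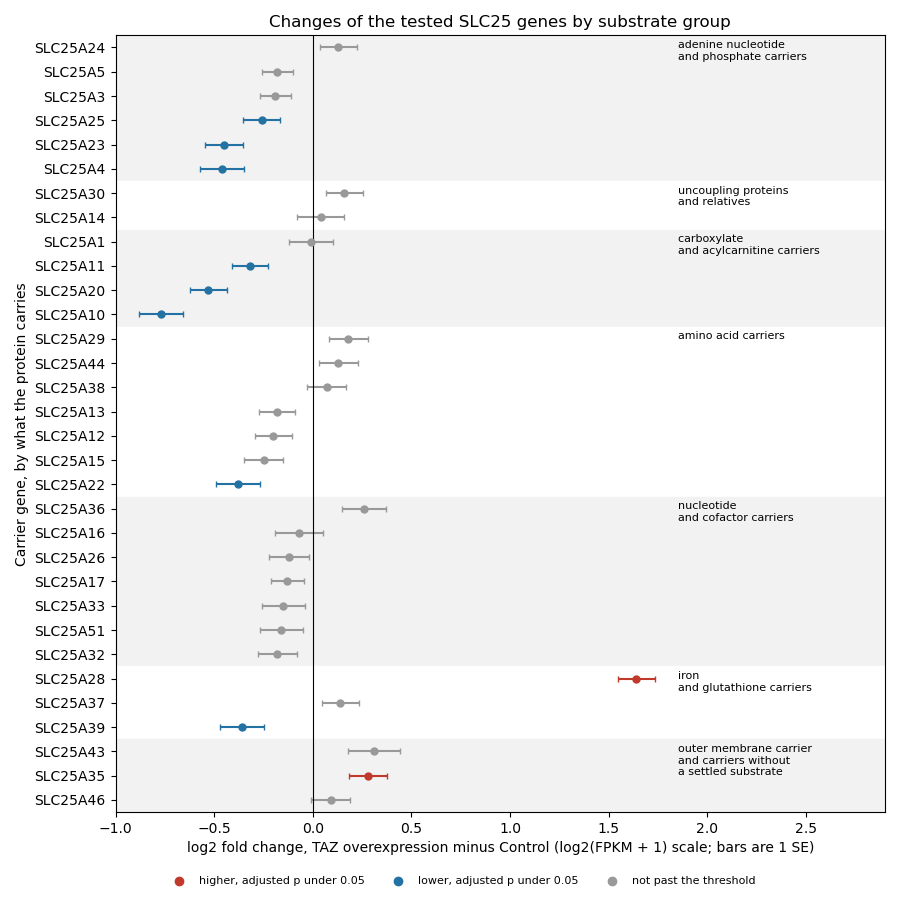
Log2 fold change (TAZ overexpression minus Control, x axis, from log2(FPKM + 1) values) of the tested carrier genes (1 of the 33 not shown), grouped down the page by what the protein carries. Points are limma estimates with bars of 1 SE, red for higher, blue for lower and grey for genes that did not pass. SLC25A28 stands alone at 1.64, and the other members shown lie between -0.77 and 0.31.

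The carriers covered a wide range of levels. The mean over all 6 libraries ran from 1.76 FPKM for SLC25A32 to 227 FPKM for SLC25A3, the phosphate carrier that feeds ATP synthase. SLC25A1 (citrate) and SLC25A5 (ADP and ATP) were the other members above 100 FPKM, and 15 of the 33 tested members stood at 10 FPKM or more. The family summed to 803, 820.4 and 833 FPKM in the TAZ libraries, against 867, 917 and 845 FPKM in the Control libraries. Every TAZ library was thus below every Control library in this sum, at a ratio of means of 0.934. As a share of all FPKM in a library, the family made up 0.186% in the TAZ libraries and 0.194% in the Control libraries. That is a smaller gap, at a ratio of 0.962, and these shares did not overlap. SLC25A3, SLC25A1 and SLC25A5 together made up 55.4 ± 0.756% of the sum in the TAZ libraries and 57.0 ± 1.61% in the Control libraries, and these shares overlapped. SLC25A28 made up 6.36 ± 0.213% of the sum in the TAZ libraries and 1.84 ± 0.174% in the Control libraries. Without SLC25A28 the family sum was 767 ± 14.3 FPKM in the TAZ libraries and 860.2 ± 35.7 FPKM in the Control libraries. As SLC25A28 was the member with the largest rise, leaving it out could only widen this gap.

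**Figure D2:**
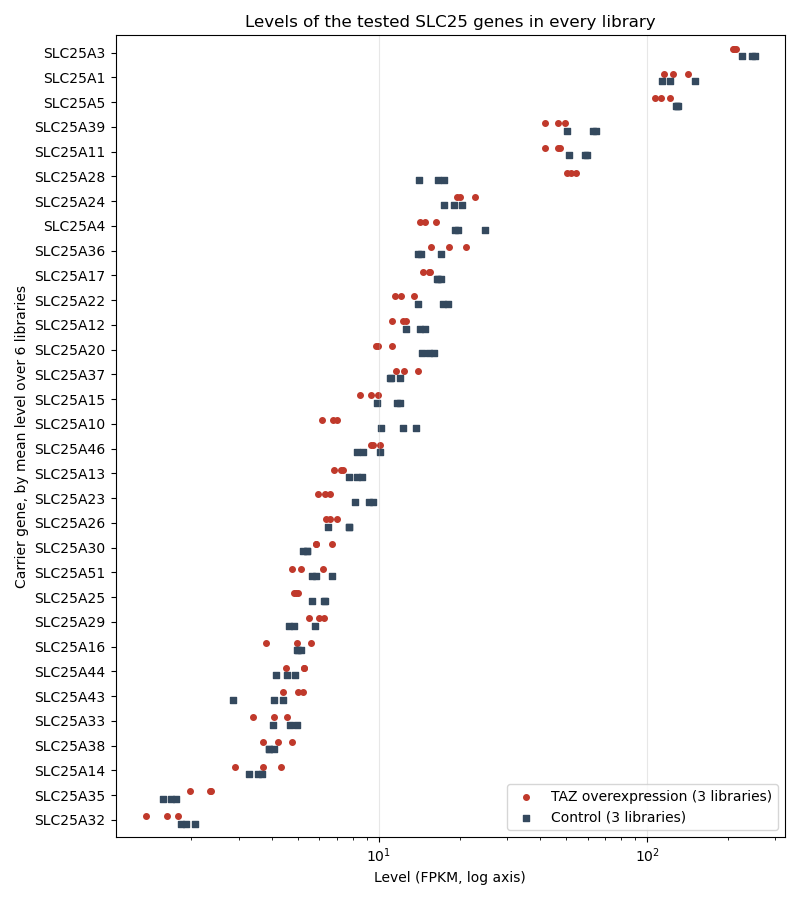
Level in every library (FPKM, log axis) of the tested carrier genes (1 of the 33 not shown), ordered by their mean over the 6 libraries, with TAZ libraries as red circles above Control libraries as dark squares. SLC25A3, SLC25A1 and SLC25A5 lie above 100 FPKM, and SLC25A28 shows the widest gap between the groups.

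The iron carriers gave the largest change of the family. SLC25A28 encodes mitoferrin-2, which imports iron into mitochondria for heme and iron-sulfur cluster synthesis in many tissues, and SLC25A37 encodes mitoferrin-1, the form best known from developing red blood cells. SLC25A28 stood at 51.9, 50.2 and 54.2 FPKM in the TAZ libraries, against 17.6, 16.7 and 14.2 FPKM in the Control libraries. The lowest TAZ library was far above the highest Control library. These values come from 2730, 2919 and 3087 counted reads in the TAZ libraries, against 947, 871 and 757 in the Control libraries. The group values were 52.1 ± 2.01 FPKM in TAZ libraries and 16.1 ± 1.75 FPKM in Control libraries, a ratio of means of 3.23 (log2 fold change 1.64, SE 0.094, limma adjusted p = 1.82e-08). In 14 alternative fits (other pseudocounts, filters and scalings, recovered reads, a replicate block, and each library left out) the log2 fold change lay between 1.55 and 1.75, and each of them kept the call. The summed level of 5 leukocyte markers was 26.7 to 27.7 FPKM in the TAZ libraries, against 13.4 to 16.4 FPKM in the Control libraries. Of these markers CD14 and CD68 passed the filter, CSF1R and CD3E did not, and PTPRC, the pan-leukocyte marker, was at 0 in all 6 libraries. Their part in the rise of SLC25A28 was not tested.

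SLC25A37, which a long noncoding RNA gene overlaps in the RefSeq table, did not pass the test. It stood at 14.0, 11.6 and 12.4 FPKM in the TAZ libraries, against 11.1, 12.0 and 11.0 FPKM in the Control libraries, and the groups overlapped (log2 fold change 0.14, SE 0.096, limma adjusted p = 0.278). Within a library, SLC25A28 was 3.72, 4.33 and 4.38 times the level of SLC25A37 in the TAZ libraries, against 1.58, 1.39 and 1.29 times in the Control libraries. The log2 ratio differed by 1.55, with no overlap between the groups. This ratio and the 3 other carrier ratios below were chosen after the values were seen and are given as a description, with no test. The summed level of both mitoferrin genes was 64.7 ± 2.59 FPKM in the TAZ libraries and 27.5 ± 2.0 FPKM in the Control libraries.

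SLC25A39, which is needed for the import of the antioxidant glutathione into mitochondria, fell. It stood at 41.6, 49.2 and 46.5 FPKM in the TAZ libraries, against 62.7, 64.7 and 50.3 FPKM in the Control libraries. Control replicate 3 lay near the highest TAZ library, and the groups did not overlap (log2 fold change -0.36, SE 0.11, limma adjusted p = 0.0174). The call was lost without Control replicate 1 (adjusted p = 0.0608), Control replicate 2 (0.0699) or TAZ replicate 1 (0.0692), under median-ratio scaling (0.0502) and with no filter (0.0601). Over its alternatives the adjusted p ran from 0.00129 to 0.0699.

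Of the 4 tested carboxylate and acylcarnitine carriers, 3 fell and 0 rose, with a median log2 fold change of -0.42, beside 22.1% lower and 15.7% higher over all tested genes. Of the 3 calls, that of SLC25A11 was lost in 4 alternatives. SLC25A10, which exchanges malate and succinate for phosphate, had the largest fall of the tested members. It stood at 6.15, 6.99 and 6.72 FPKM in the TAZ libraries, against 13.7, 12.3 and 10.2 FPKM in the Control libraries. The highest TAZ library was below the lowest Control library, at a ratio of means of 0.548 (log2 fold change -0.77, SE 0.11, limma adjusted p = 0.000122). The call held in each of the 14 alternative fits, with a log2 fold change between -0.88 and -0.68.

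SLC25A20, the carnitine-acylcarnitine carrier that brings activated fatty acids into the matrix, fell to 9.80, 11.2 and 9.95 FPKM in the TAZ libraries, against 16.1, 15.4 and 14.5 FPKM in the Control libraries. All TAZ libraries were below all Control libraries (log2 fold change -0.53, SE 0.093, limma adjusted p = 0.000622), and the call held in each of the 14 alternative fits. The RefSeq table lists a pseudogene that overlaps it. The enzymes on either side of this carrier, CPT1A and CPT2, fell as well. CPT1A stood at 24.2 ± 1.16 FPKM in TAZ libraries and 37.0 ± 4.88 FPKM in Control libraries (limma adjusted p = 0.00054), and CPT2 at 10.6 ± 0.36 FPKM in TAZ libraries and 15.7 ± 1.14 FPKM in Control libraries (adjusted p = 0.000572).

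SLC25A11 exchanges malate for oxoglutarate in the malate-aspartate shuttle, which carries reducing equivalents into mitochondria. It stood at 41.6, 47.3 and 46.5 FPKM in the TAZ libraries, against 58.9, 59.6 and 51.4 FPKM in the Control libraries, with no overlap (log2 fold change -0.32, SE 0.091, limma adjusted p = 0.0142). The call was lost without Control replicate 1 (adjusted p = 0.0501), Control replicate 2 (0.055) or TAZ replicate 1 (0.0679) and in the voom fit of recovered reads (0.0519), within a range of 0.00432 to 0.0679. The RefSeq table places RNF167 over the same stretch, and RNF167 fell too (log2 fold change -0.35, SE 0.09, limma adjusted p = 0.00821). Without stated strand, reads of the overlapping part cannot be assigned to either gene.

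SLC25A1, the citrate carrier, did not pass. It stood at 116, 125 and 142 FPKM in the TAZ libraries, against 122, 151 and 114 FPKM in the Control libraries, with interleaved values (log2 fold change -0.01, SE 0.11, limma adjusted p = 0.962). ACLY, the cytosolic enzyme that splits exported citrate into acetyl-CoA and oxaloacetate, rose to 50.8 ± 2.15 FPKM in TAZ libraries, against 37.4 ± 3.35 FPKM in Control libraries (limma adjusted p = 0.002). ACLY is named here after its values were seen. SLC25A21, the oxodicarboxylate carrier, was below the filter with 50 counted reads in the TAZ libraries and 42 in the Control libraries.

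**Figure D3:**
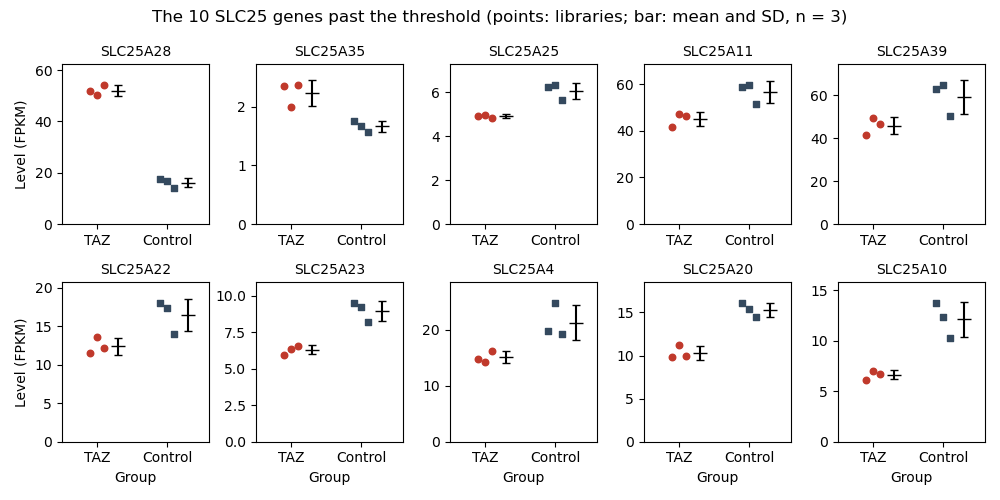
Level in every library (FPKM, axes from 0) of the 10 carrier genes past the threshold, with TAZ libraries to the left as red circles and Control libraries to the right as dark squares. The black bar is the mean with its SD (n = 3). SLC25A28 and SLC25A35 were higher in the TAZ libraries and the other 8 were lower, and for none of the 10 did the groups overlap.

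Carriers of adenine nucleotides and phosphate supply the ATP synthase and export its product. Of 6 tested, 3 fell and 0 rose, with a median log2 fold change of -0.22, beside the same 22.1% lower and 15.7% higher over all tested genes. Of the 3 calls, that of SLC25A25 was lost in 9 of the 14 alternatives. SLC25A4 encodes the ADP/ATP translocase best known from heart and skeletal muscle. It stood at 14.8, 14.2 and 16.3 FPKM in the TAZ libraries, against 19.7, 24.8 and 19.2 FPKM in the Control libraries. The groups did not overlap, and Control replicate 2 was the highest library (log2 fold change -0.46, SE 0.11, limma adjusted p = 0.00453). The call held in each of the 14 alternative fits.

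SLC25A5, the translocase of dividing cells, stood at 107, 122 and 113 FPKM in the TAZ libraries, against 129.8, 129.9 and 128 FPKM in the Control libraries. These groups did not overlap either, but the gene did not pass the test (log2 fold change -0.18, SE 0.08, limma adjusted p = 0.0908). Sums over both translocases were 129 ± 6.94 FPKM in TAZ libraries and 151 ± 3.69 FPKM in Control libraries. The ratio of SLC25A5 to SLC25A4 was 7.25, 8.56 and 6.93 in the TAZ libraries, against 6.57, 5.23 and 6.69 in the Control libraries. The log2 ratio differed by 0.3, and by 0.19 without Control replicate 2. SLC25A3, the phosphate carrier, stood at 214, 209.6 and 211 FPKM in the TAZ libraries, against 227, 252 and 247 FPKM in the Control libraries, with no overlap, and did not pass (log2 fold change -0.19, SE 0.078, limma adjusted p = 0.0772).

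The ATP-Mg/phosphate carriers, which are regulated by calcium and set the adenine nucleotide content of the matrix, had 3 tested members. Of these 3, 2 fell, beside 22.1% lower over all tested genes, and only the call of SLC25A23 held in every alternative fit. SLC25A23 fell to 5.95, 6.32 and 6.57 FPKM in the TAZ libraries, against 9.50, 9.19 and 8.17 FPKM in the Control libraries. Its groups were well apart (log2 fold change -0.45, SE 0.096, limma adjusted p = 0.00254), and the call held in each of the 14 alternative fits. SLC25A25 stood at 4.91, 4.98 and 4.82 FPKM in the TAZ libraries, against 6.24, 6.32 and 5.65 FPKM in the Control libraries (log2 fold change -0.26, SE 0.093, limma adjusted p = 0.0428). The adjusted p ran from 0.0254 to 0.131 over the alternatives. The call was lost without Control replicate 1 (0.115), Control replicate 2 (0.127), TAZ replicate 1 (0.0992), TAZ replicate 2 (0.0874) or TAZ replicate 3 (0.131). It was also lost with no filter (0.0559), under median-ratio scaling (0.0898), in the voom fit (0.0697) and with the replicate block (0.129).

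SLC25A24, the most abundant of the 3 tested ATP-Mg/phosphate carriers, stood at 22.9, 19.6 and 20.1 FPKM in the TAZ libraries, against 19.1, 17.4 and 20.5 FPKM in the Control libraries. The groups overlapped (log2 fold change 0.13, SE 0.095, limma adjusted p = 0.312). The ratio of SLC25A24 to SLC25A23 was 3.84, 3.11 and 3.06 in the TAZ libraries, against 2.01, 1.90 and 2.51 in the Control libraries. The log2 ratio differed by 0.65 with no overlap. SLC25A41, a further member of this branch, had 18 counted reads in the TAZ libraries and 17 in the Control libraries. SLC25A31, the testis form of the ADP/ATP translocase, had 1 counted read in the TAZ libraries and 0 in the Control libraries, and a 0 leaves room for up to 3 reads in a library.

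**Figure D4:**
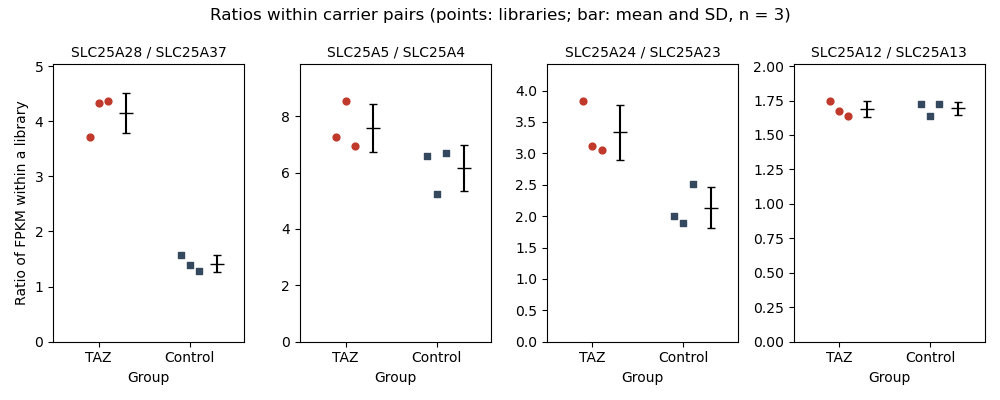
Ratio of FPKM within each library for 4 pairs of related carriers (y axes from 0), with TAZ libraries to the left and Control libraries to the right and the mean with its SD beside the points (n = 3). The ratio of SLC25A28 to SLC25A37 was 4.14 ± 0.363 in TAZ libraries and 1.42 ± 0.148 in Control libraries, while the ratio of SLC25A12 to SLC25A13 was 1.69 ± 0.0579 in TAZ libraries and 1.69 ± 0.0493 in Control libraries.

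Of the 7 tested amino acid carriers, 1 fell and 0 rose, with a median log2 fold change of -0.18, beside 22.1% lower and 15.7% higher over all tested genes. SLC25A22, which imports glutamate together with protons, stood at 11.5, 13.5 and 12.1 FPKM in the TAZ libraries, against 18.1, 17.3 and 14.1 FPKM in the Control libraries. Control replicate 3 lay just above the highest TAZ library (log2 fold change -0.38, SE 0.11, limma adjusted p = 0.0142). The call was lost without Control replicate 1 (adjusted p = 0.0598) or TAZ replicate 1 (0.0519), over a range of 0.00151 to 0.0598.

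SLC25A12 and SLC25A13 encode the calcium-regulated aspartate-glutamate carriers of the malate-aspartate shuttle, and neither passed. SLC25A12 stood at 12.6, 12.3 and 11.2 FPKM in the TAZ libraries, against 14.9, 12.7 and 14.3 FPKM in the Control libraries (limma adjusted p = 0.121). SLC25A13 stood at 7.20, 7.34 and 6.83 FPKM in the TAZ libraries, against 8.63, 7.75 and 8.28 FPKM in the Control libraries (limma adjusted p = 0.137). The groups did not overlap for either gene. Their log2 ratio within a library was 0.75 ± 0.05 in TAZ libraries and 0.76 ± 0.04 in Control libraries.

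SLC25A15, which carries ornithine for the urea cycle and related pathways, stood at 9.89, 9.33 and 8.54 FPKM in the TAZ libraries, against 12.0, 9.84 and 11.7 FPKM in the Control libraries. It did not pass (log2 fold change -0.25, SE 0.1, limma adjusted p = 0.0753), but was called lower without Control replicate 2 (adjusted p = 0.0349, over a range of 0.0349 to 0.253). SLC25A29 (basic amino acids), SLC25A38 (glycine for heme synthesis) and SLC25A44 (branched-chain amino acids) had log2 fold changes of 0.18, 0.07 and 0.13 with limma adjusted p-values of 0.186, 0.631 and 0.351.

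None of the 8 tested nucleotide and cofactor carriers passed the test, beside 22.1% lower and 15.7% higher over all tested genes. SLC25A36, which carries pyrimidine nucleotides, came nearest. It stood at 21.0, 15.7 and 18.3 FPKM in the TAZ libraries, against 14.0, 14.4 and 17.1 FPKM in the Control libraries, and the groups overlapped (log2 fold change 0.26, SE 0.11, limma adjusted p = 0.0965). It was called higher without Control replicate 3 (adjusted p = 0.0278) or TAZ replicate 2 (0.0346), under median-ratio scaling (0.0481) and in the voom fit (0.0413), over a range of 0.0278 to 0.352. SLC25A33, its relative, had a log2 fold change of -0.15 (SE 0.11). SLC25A17 (peroxisomal cofactors), SLC25A26 (S-adenosylmethionine), SLC25A51 (NAD) and SLC25A32 (folate and FAD) lay between -0.18 and -0.12. SLC25A16, a carrier linked to coenzyme A, was at -0.07.

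The uncoupling protein UCP2 was weakly expressed in both groups. It stood at 0.211, 0.411 and 0.225 FPKM in the TAZ libraries, against 0.285, 0.376 and 0.160 FPKM in the Control libraries, from 56 and 51 counted reads. These overlapping values were below the filter, and in the fit without a filter the gene did not pass (limma adjusted p = 0.951). Its relatives SLC25A14 and SLC25A30 were expressed at 3.64 ± 0.712 and 6.10 ± 0.497 FPKM in TAZ libraries, against 3.49 ± 0.195 and 5.35 ± 0.112 FPKM in Control libraries. Neither passed (limma adjusted p = 0.832 for SLC25A14 and 0.204 for SLC25A30). The RefSeq table places CFAP47 over SLC25A14.

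Among carriers without a settled substrate, SLC25A35 was called higher at a low level. It stood at 2.35, 1.98 and 2.36 FPKM in the TAZ libraries, against 1.75, 1.67 and 1.56 FPKM in the Control libraries, with no overlap (log2 fold change 0.28, SE 0.097, limma adjusted p = 0.0372). The call was lost under quantile normalization (adjusted p = 0.0577) and without Control replicate 1 (0.0583), 2 (0.0819) or 3 (0.0852) or TAZ replicate 1 (0.112) or 3 (0.124), with a lowest value of 0.0208. The RefSeq table places RANGRF over it, and RANGRF fell (log2 fold change -0.56, SE 0.11, limma adjusted p = 0.00178). SLC25A43 stood at 5.24, 4.38 and 5.02 FPKM in the TAZ libraries, against 4.07, 2.85 and 4.40 FPKM in the Control libraries, and did not pass (log2 fold change 0.31, SE 0.13, limma adjusted p = 0.0718). It was called higher without Control replicate 3 (adjusted p = 0.0183), under median-ratio scaling (0.0379) and in the voom fit (0.0405), over a range of 0.0183 to 0.313. SLC25A46, an outer membrane protein of mitochondrial dynamics, had a log2 fold change of 0.09 (SE 0.098).

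The 11 members below the filter stayed under 1 FPKM in every library, and 3 of them passed in the fit without a filter. In that fit, 1752 of all 16021 genes were called higher and 2286 lower. SLC25A53, a carrier of unknown substrate, had 12, 10 and 5 counted reads in the TAZ libraries, against 27, 25 and 31 in the Control libraries. The ratio of mean FPKM was 0.313, and the groups did not overlap (limma adjusted p = 0.00247). The RefSeq table places DMD over SLC25A53, and DMD was itself below the filter at 0.0713 ± 0.00767 FPKM in TAZ libraries and 0.107 ± 0.0277 FPKM in Control libraries. SLC25A27, a brain uncoupling protein relative, had 12, 15 and 11 counted reads in the TAZ libraries, against 21, 25 and 24 in the Control libraries (limma adjusted p = 0.012). SLC25A42, a coenzyme A carrier, stood at 0.864, 0.934 and 0.827 FPKM in the TAZ libraries, against 0.574, 0.698 and 0.588 FPKM in the Control libraries, and so was the low member that was higher (limma adjusted p = 0.0192). SLC25A34 had 94 counted reads in the TAZ libraries and 127 in the Control libraries and did not pass (adjusted p = 0.0812). SLC25A47, SLC25A45 and SLC25A48 had at most 4 counted reads in any library.

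Genes that work with the carriers were read from 4 further lists. Of their 68 tested genes, 7 rose (10.3%) and 18 fell (26.5%), against 15.7% and 22.1% over all tested genes. The lower count was 10 under median-ratio scaling, 9 in the voom fit, 10 without Control replicate 2, 11 without TAZ replicate 1 and 10 without TAZ replicate 3, and the higher count was 4 without TAZ replicate 2. Of the 14 tested genes of the carrier import machinery, 1 rose (7.14%) and 3 fell (21.4%). TIMM10B, a small chaperone of the intermembrane space that hands carriers to the inner membrane, rose to 8.58 ± 0.744 FPKM in TAZ libraries, against 5.43 ± 0.502 FPKM in Control libraries (limma adjusted p = 0.000666). The receptor gene TOMM22 and the pore gene TOMM40 of the outer membrane fell to 0.82 and 0.789 times the Control level. Both calls were lost without Control replicate 1 or 2 or TAZ replicate 3, and that of TOMM40 also without TAZ replicate 1, at adjusted p-values from 0.052 to 0.0953. They were also lost under median-ratio scaling (0.0512 for TOMM22 and 0.0643 for TOMM40) and in the voom fit (0.0608 and 0.0674), that of TOMM22 with the replicate block (0.0675) and that of TOMM40 with no filter (0.0679). Over the alternatives the adjusted p ran from 0.0112 to 0.0716 for TOMM22 and from 0.00352 to 0.0953 for TOMM40. TIMM8B fell to 0.828 times the Control level, and its call was lost without Control replicate 2 or any TAZ replicate, at adjusted p-values from 0.0804 to 0.137, as well as in the voom fit (0.192), under median-ratio scaling (0.0932) and with the replicate block (0.116). Its lowest adjusted p over the alternatives was 0.0294.

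A further list held 19 tested transporters of the mitochondrial membranes whose symbols do not begin with SLC25A. Of these, 0 rose, against 15.7% higher over all tested genes. The 5 that fell (26.3%) are a share near the 22.1% lower over all tested genes. MTCH1, a diverged carrier homologue of the outer membrane, fell to 108 ± 3.74 FPKM in TAZ libraries, against 156 ± 3.84 FPKM in Control libraries (limma adjusted p = 0.000135). Because members were taken by symbol, MTCH1 was not counted among them. MTCH2, of the same list and named here after its values were seen, did not pass (log2 fold change -0.10, SE 0.08, limma adjusted p = 0.347). MCUB, a subunit that restrains the calcium uniporter, fell to 0.786 times, ABCB8 to 0.735 times and the sideroflexin SFXN4 to 0.735 times the Control level. The fifth, VDAC1, an outer membrane channel named here after its values were seen, fell to 0.858 times the Control level (limma adjusted p = 0.0391). It lost its call in 9 of the 14 alternatives, over a range of 0.0252 to 0.16. The call of SFXN4 was lost without Control replicate 2 (adjusted p = 0.0985), TAZ replicate 2 (0.0962) or TAZ replicate 3 (0.0676), in the voom fit (0.0675) and with no filter (0.0761).

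Of 25 tested enzymes that make or use carried metabolites, 6 rose (24%) and 9 fell (36%), against 15.7% and 22.1% over all tested genes. GPD2, the mitochondrial enzyme of the glycerol phosphate shuttle, rose to 6.82 ± 0.564 FPKM in TAZ libraries, against 2.82 ± 0.511 FPKM in Control libraries (log2 fold change 1.04, SE 0.11, limma adjusted p = 1.11e-05). ARG2, the mitochondrial arginase that forms ornithine, rose to 16.4 ± 0.935 FPKM in TAZ libraries, against 10.4 ± 0.756 FPKM in Control libraries (limma adjusted p = 0.00019). Of 10 tested regulators of mitochondrial biogenesis, 0 rose and 1 fell (10%), against the same 15.7% and 22.1% over all tested genes. That gene was PPRC1, a coactivator related to PGC-1, at 6.61 ± 0.75 FPKM in TAZ libraries and 9.13 ± 0.745 FPKM in Control libraries (limma adjusted p = 0.0072). The regulator below the filter was PPARGC1A, which encodes PGC-1α, a coactivator of mitochondrial biogenesis, and it is described here after its values were seen. It had 13, 21 and 24 counted reads in the TAZ libraries, against 2, 6 and 4 in the Control libraries. These low values did not overlap, at a ratio of mean FPKM of 4.54, and the gene was higher in the fit without a filter (limma adjusted p = 0.0132).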

How the data were processed

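Per the submitters' processing notes, reads were handled with fastp, HISAT2 and HTSeq, with no versions. No source used here names the genome build, and coordinates are left out. The authors deposited FPKM values, per the file headers, with the groups in separate tables. Of 16285 rows, 23 that held a date in place of a symbol were left out. All 16262 symbols were in the RefSeq table of ARS1.2, used for names, lengths of single-exon genes and neighbours.

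Counted reads were recovered from the steps of the FPKM values. Library totals were set so that genes shorter than 2500 bases gave whole numbers at their RefSeq length, and other lengths were the shortest that made all 6 values whole within 0.02. This gave 99.99% of rows with a value. Floors cover counting error only. Neither labels nor headers say whether a counted read is a fragment or a single mate, so independent fragments may be fewer than the counts printed. For genes of 1 to 3 reads the number is the smallest possible.

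Genes with at least 1 FPKM in at least 3 libraries were fitted as log2(FPKM + 1) with limma 3.58.1 in R 4.3.3 (empirical Bayes with trend, Benjamini-Hochberg adjustment over all tested genes). Within groups, chi-square per degree of freedom between libraries was 20.8 to 32.8, so none were duplicates. Fits were repeated with a pseudocount of 0.1 or 0.5, without the filter, with a mean of at least 5 FPKM, with median-ratio scaling or quantile normalization, with voom on recovered reads with trimmed-mean scaling, with the replicate number as a block and without each library. Members and lists, which name carriers and up to 4 called genes of each other list, were chosen with earlier results of these data known. 1 member counted in the totals is not reported here by name or value. The 4 carrier ratios and the overlapping genes were chosen after the values were seen.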

Additional observations from a re-analysis of the deposited data

How the results depend on the processing

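SLC25A28, SLC25A10, SLC25A20, SLC25A4 and SLC25A23 kept their direction and call in all 14 alternatives, as did WWTR1, whose log2 fold change ran from 1.38 to 1.62. No called member reversed its direction. The 2 higher members became 1 with a mean of at least 5 FPKM (where SLC25A35 was not tested), 1 under quantile normalization, 4 under median-ratio scaling and 4 with voom on recovered reads, and 1 to 3 when a library was left out. The 8 lower members became 4 to 8 when a library was left out. For the other lists, the 18 lower genes became 10 under median-ratio scaling and 9 with voom, and 10 to 19 when a library was left out, while the 7 higher became 4 to 6. The cause of these shifts was not tested. Replicate numbers did not pair the libraries: deviations of libraries with the same number correlated at -0.44, -0.11 and -0.40, and no library correlated best with its own number. The highest correlation was 0.69, between Control replicate 3 and TAZ replicate 1. Next came Control replicate 2 with TAZ replicate 3 (0.55) and Control replicate 1 with TAZ replicate 2 (0.53). No block of these pairs was fitted. With the replicate block, 1 member was higher and 7 were lower, as the calls of SLC25A35 (adjusted p = 0.088) and SLC25A25 (0.129) were lost, and 1548 of all tested genes were higher and 1964 lower, in place of 1693 and 2381. The differences of the 4 carrier ratios were recomputed without each library, an alternative chosen after seeing the data, and that of SLC25A28 to SLC25A37 ran from 1.48 to 1.63. Calls near the threshold rest on 3 libraries a group.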
